A study of Mus musculus with 4 samples.

Results

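XX control and XY control gonads at E11.5, the day on which the mouse gonad takes its ovarian or testicular course, were compared within each of 5 gonadal cell types. The cells were those of both controls that the deposited annotation names Bipotential progenitors (pre-supporting cells), Epithelial (coelomic epithelium), Interstitial cells (interstitial progenitors), PGCs (germ cells) or SLCs (supporting-like cells). There were 7483 such cells among 27196 cells of both controls and 52745 cells of the whole series. The XX control held 352 pre-supporting, 230 epithelial, 227 interstitial, 84 germ and 88 supporting-like cells. The XY control held 1641, 2215, 1305, 556 and 785 of them in the same order. Only autosomal genes were compared, so that the X and Y chromosomes could not by themselves set a difference.

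The samples came from a study of the miR-17~92 cluster, and both controls carried the cluster unedited. The labels give the strain of both as C57BL/6 x 129S4/SvJae. They differed in more than sex. XY control embryos were grown by tetraploid aggregation from the parental G4 embryonic stem cell line, which is 1 line of an F1 hybrid of C57BL/6J and 129, whereas XX control embryos came from C57BL/6J fathers and 129 mothers. Gonads of several embryos, with the attached mesonephros, were pooled for each sample, fixed in methanol and sequenced in 2 technical runs. With 1 sample a side no test was possible and no p-value is given. Sex, derivation, exact stage, depth and filtering cannot be told apart here.

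In the mammalian gonad the supporting lineage decides sex. In XY gonads Sry switches on Sox9 in pre-supporting cells, Sox9 and Fgf9 reinforce each other, and these cells become Sertoli cells, the nurse cells of the testis. In XX gonads WNT4, RSPO1 and later FOXL2 act instead, and the same cells become pre-granulosa cells. Germ cells, interstitial progenitors and the other somatic cells are thought to follow the supporting cells. A comparison type by type therefore asks which cells already differ while the decision is being made.

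The libraries themselves differed, and these values touch the results below. XX cells were deeper, with a median of 15509 UMIs (unique molecular identifiers, a count of captured RNA molecules) per cell against 3893, and UMIs summed over a type ranged from 1239569 to 6781433 in the XX control and from 2829094 to 10786003 in the XY control. In the XX control 453 cells lay past a limit that the authors set for XY cells, 64 of the 84 germ cells among them. The runs of the XX control shared 1 cell barcode, those of the XY control 40, and the controls shared 35. The summed level of 9 erythroid markers, which no gonadal cell should make, was between 0.269 and 0.397 of the XY level in the XX types. Tpm3-rs7, a gene copy of the tropomyosin Tpm3 that shares sequence with it (chromosome 14, 113314608 to 113316754), was lower in XX cells everywhere, at 1.92 CPM (the UMIs of a gene as a share of all UMIs, scaled to the usual unit) against 71.4 in pre-supporting cells and at a log2 ratio of −4.18 in non-gonadal cells. The linker histone gene Hist1h1b was higher in non-gonadal cells too, at 1.27. Across genes, which are not independent replicates, the log2 ratio ran against the length of the 3′ UTR (Spearman's rho between −0.297 and −0.229 in the 5 types, over 3444 to 7881 genes).

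For this reason each gene was read in 2 ways. The first is its log2 ratio of XX over XY in a cell type, relative to the median gene. The second is that ratio minus the ratio in 7 non-gonadal types of the same samples (18959 cells of mesonephros, adrenal, vessels, nerve and blood), called the difference from non-gonadal cells. A shift shared by the whole libraries drops out of the second. For the difference, rho with 3′ UTR length lay between −0.00107 and 0.0794. Genes had at least 200 UMIs over both samples, and a gene is called past 2-fold at a log2 value of 1 or more in either direction. Ratios and levels carry 95% exact intervals, which cover counting error only and say nothing about variation between embryos.

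The deposited names were checked against marker genes. The 7 pre-supporting markers, among them Gata4, Wt1, Nr5a1 and Runx1, summed to 3011 CPM in XX and 3100 CPM in XY pre-supporting cells, and the highest sum in the other 4 types was 1479 CPM. The 8 germ cell markers summed to 6380 and 5557 CPM in germ cells and to no more than 108.5 CPM in the other types. Interstitial markers were highest in interstitial cells, at 2900 and 3001 CPM, and Pax8 and Ncam1 were highest in supporting-like cells. In the epithelium Upk3b, a uroplakin of mesothelial cells, stood at 190.9 and 190.2 CPM and was at most 10.25 CPM in the other types. The whole epithelial list did not single out that type, since Lgals7, 1 of its 7 genes, reached 898.6 and 988.0 CPM in pre-supporting cells, and Msln had 0 UMIs in both. Only 2 XX cells were named Sertoli cells against 752 in the XY control, so that type could not be compared. The authors took these names from clustering in which the genes compared below also had a part, and it set the 752 XY Sertoli cells apart from the XY pre-supporting cells. All 5 comparisons share the same pair of samples and are given side by side.

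Pre-supporting cells held the most autosomal genes past 2-fold, 85 of 7561, and coelomic epithelium followed with 72 of 7976. The order of these 2 types turned without the first XX run (91 and 101) and at 1.5-fold (450 and 485). Interstitial progenitors had 25 of 6013, germ cells 18 of 5572 and supporting-like cells 19 of 3472. As shares of the genes tested these are 1.12%, 0.903%, 0.416%, 0.323% and 0.547%. Non-gonadal cells, summed to far greater depth, had 1.52%, so a share of this size is not particular to the gonad. Once the non-gonadal ratio was taken away, 0.642% of genes stayed past 2-fold in pre-supporting cells, 0.276% in the epithelium, 0.254% in germ cells, 0.0998% in interstitial progenitors and 0.0576% in supporting-like cells. With XX cells held to the XY limits germ cells had the most on this measure, 90 against 61 in pre-supporting cells. Between the 2 runs of 1 sample the share was at most 0.164%. For every gene past 2-fold in the 5 types, both XX runs lay outside both XY runs. The same held for 4861 of the 7561 genes tested in pre-supporting cells and 5224 of 7976 in the epithelium, so it is a weak criterion.

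**Figure D1:**
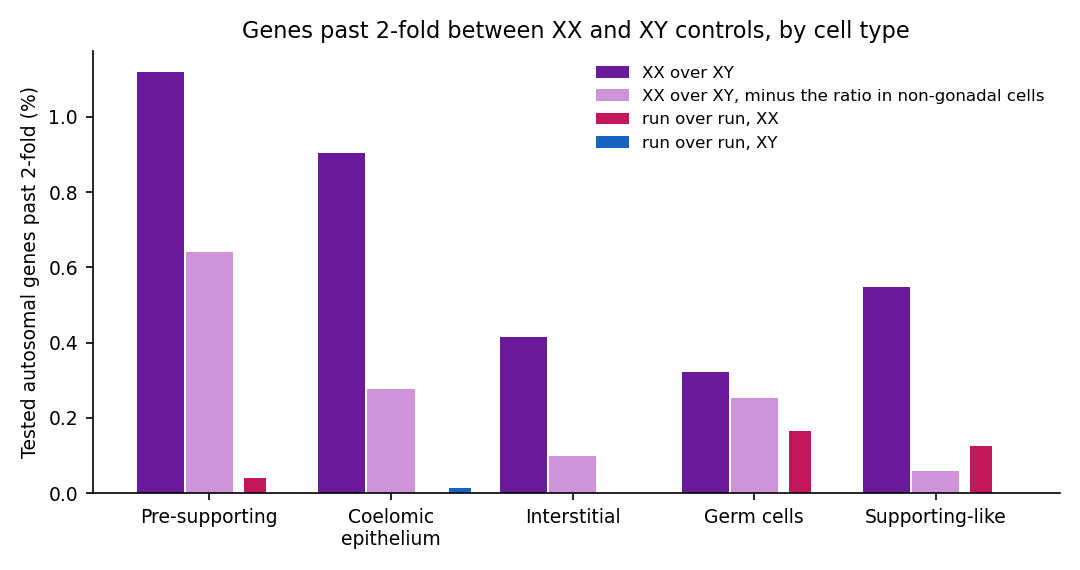
Percent of tested autosomal genes past 2-fold in each gonadal cell type, for XX over XY, for the same ratio minus that of non-gonadal cells, and for run over run within each sample. Pre-supporting cells are highest on both measures of XX over XY (1.12% and 0.642%), and the run bars stay at or under 0.164%.

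Depth and the genes admitted differ between the types, so the counts were read again at matched depth. With every sum thinned to 1239569 UMIs and each type keeping its own genes over the minimum, pre-supporting cells had 23 of 1998 genes past 2-fold, the epithelium 7 of 2032, interstitial progenitors 14 of 2100, germ cells 5 of 1772 and supporting-like cells 8 of 1978. For the difference the counts were 13, 2, 2, 5 and 1 in the same order. With every type thinned to 1239569 UMIs per sample and the same 1094 genes read in all, no type had more than 2 genes past 2-fold and none had a difference from non-gonadal cells past it. On those abundant genes 95% of the absolute log2 ratios lay under 0.487 in pre-supporting cells, 0.484 in germ cells, 0.474 in interstitial progenitors, 0.472 in supporting-like cells and 0.451 in the epithelium. Pre-supporting cells thus had the most genes past 2-fold at matched depth when each type kept its own genes, whereas on the genes abundant in all types the 5 could not be ranked.

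**Figure D2:**
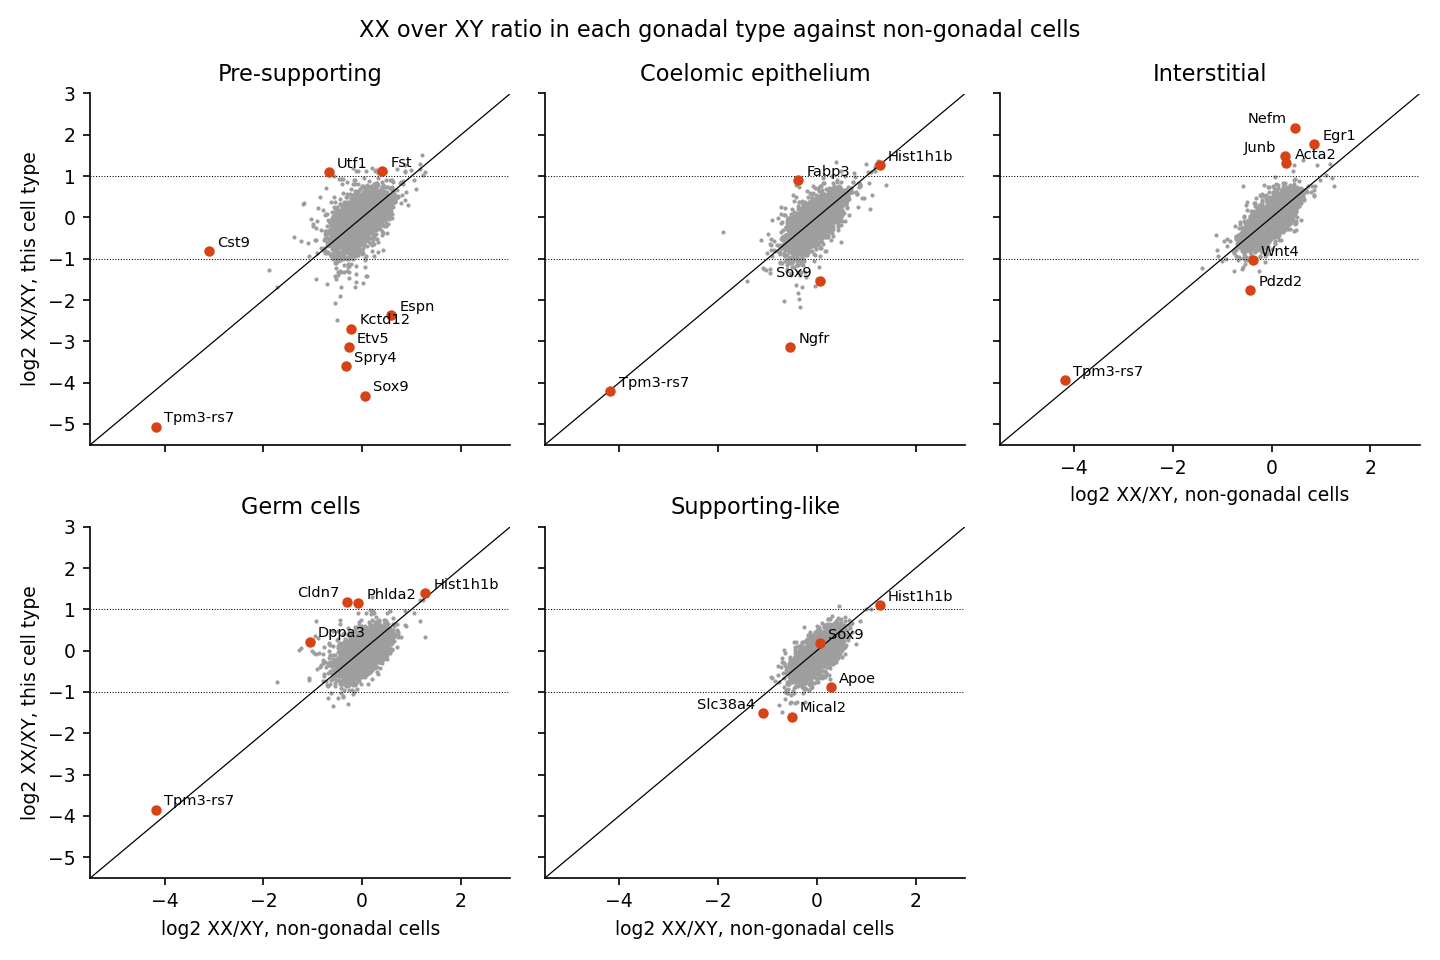
Each point is an autosomal gene, with its log2 ratio of XX over XY in non-gonadal cells on the horizontal axis and in 1 gonadal type on the vertical axis, both relative to the median gene; the diagonal marks equal ratios and dotted lines mark 2-fold. Tpm3-rs7 and Hist1h1b lie on or near the diagonal, except that Tpm3-rs7 lies below it in pre-supporting cells (−5.065 against −4.18). Sox9, Spry4 and Etv5 in pre-supporting cells lie far below the diagonal, at −4.31, −3.60 and −3.14 against −0.33 to 0.06 in non-gonadal cells.

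In pre-supporting cells 31 genes were past 2-fold higher in XX (0.41% of those tested) and 54 lower (0.714%). For the difference from non-gonadal cells the counts were 22 higher (0.294%) and 26 lower (0.348%) of 7480, a balance that turned to 37 and 24 with XX cells held to the XY limits, to 27 and 22 with the differences centred again, to 102 and 92 with a minimum of 50 UMIs and to 16 and 15 without the first XY run. The genes just inside and just outside the limit stood at 1.004 and 0.96 on the higher side and at −1.0 and −0.996 on the lower side. The lowest ratio was that of Tpm3-rs7, followed by Sox9, Spry4 and Gldn. On the higher side Tmem174 led, followed by Sprr2d and Vgll2. Fst and the steroidogenic gene Cyp11a1 were past 2-fold there too, further down the order. All of these ratios were nearer to 0 than those of the lowest genes named. Merging the Sertoli cells into this type brought the count past 2-fold from 85 to 337, of which 262 were lower in XX.

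Sox9 (chromosome 11, 112782224 to 112787760) encodes the transcription factor that makes Sertoli cells. It was at 9.29 CPM in XX pre-supporting cells (95% interval 7.14 to 11.9, with 10.3 and 8.37 in the 2 runs) and at 199.6 CPM in XY pre-supporting cells (189.9 to 209.8, runs 190.2 and 210.3). The log2 ratio was −4.31 (−4.71 to −3.96), and −5.34 with XX cells held to the limits set for XY cells. In non-gonadal cells, where Sox9 marks other tissues, the ratio was 0.06, so the difference was −4.37 (−4.74 to −3.996). No other gene had a difference as far from 0 in this type, and no XX run came near an XY run.

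To see whether few or many cells carried the transcript, each cell was thinned to 3000 UMIs. Sox9 was then found in 6 of 349 XX cells, or 1.72% (0.633% to 3.70%), and in 335 of 1468 XY cells, or 22.8% (20.7% to 25.1%), with 3 and 173 shallower cells left out. Without thinning the shares were 9.94% and 27.7%. Immune cells, which should lack Sox9, gave 1 of 67 in XX and 1 of 51 in XY at the same depth, with 7 and 169 shallower cells left out and medians of 18870.5 and 1488 UMIs before thinning. The XX share could not be told from that of XX immune cells, which rests on 1 cell (0.0378% to 8.04%), and by level XX pre-supporting cells stood above them, at 9.29 against 3.75 CPM. The level in XY immune cells was higher, and the 8 Sertoli markers, Sox9 among them, summed to 6.25 CPM in XX and 58.5 CPM in XY immune cells. Immune markers summed to 7156 and 1971 CPM there, so these were not like backgrounds. Most XY pre-supporting cells also had no Sox9 UMI at this depth. In the XY Sertoli cells Sox9 reached 944.1 CPM.

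Fgf9, the secreted partner of Sox9, was too rare for the minimum, with 8 UMIs in XX and 73 in XY cells (1.18 against 9.26 CPM). Etv5 (chromosome 16, 22381309 to 22439719), an ETS factor induced by FGF receptors, was at 5.16 CPM in XX (runs 4.83 and 5.48) and 49.3 CPM in XY (44.7 and 54.6), a log2 ratio of −3.14 (−3.70 to −2.66) and a difference of −2.87. Spry4, a Sprouty inhibitor that FGF signalling induces against itself, had 13 UMIs in XX and 204 in XY cells, with 1.92 against 25.9 CPM and a ratio of −3.60 (−4.59 to −2.85). Dusp6, the ERK phosphatase of the same feedback loop, stood at 12.2 against 30.4 CPM (−1.21), and Ccnd1, the cyclin D1 gene, at 17.6 against 42.9 CPM (−1.18). Without the second XX run Ccnd1 was at −0.78.

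Of the 20 genes on the FGF feedback list 10 reached the minimum here. None was past 2-fold higher and 4 were lower (Spry4, Etv5, Dusp6 and Ccnd1), against 0.41% and 0.714% of all genes tested. Of the 10, 9 lay below 0. The median ratio was −0.84, against 0 for all tested genes by construction, and the median difference from non-gonadal cells was −0.61, against −0.06 for all genes. The receptor genes Fgfr1 and Fgfr2 stayed inside the limit, and Fgfr2 stood at −0.09. Phlda1, at 0.06, was the only member above 0. In germ cells 9 of 11 tested members lay below 0 too, with a median of −0.181, and in interstitial cells 5 of 9, with −0.375. This and the other lists were chosen with earlier results of these data known.

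**Figure D3:**
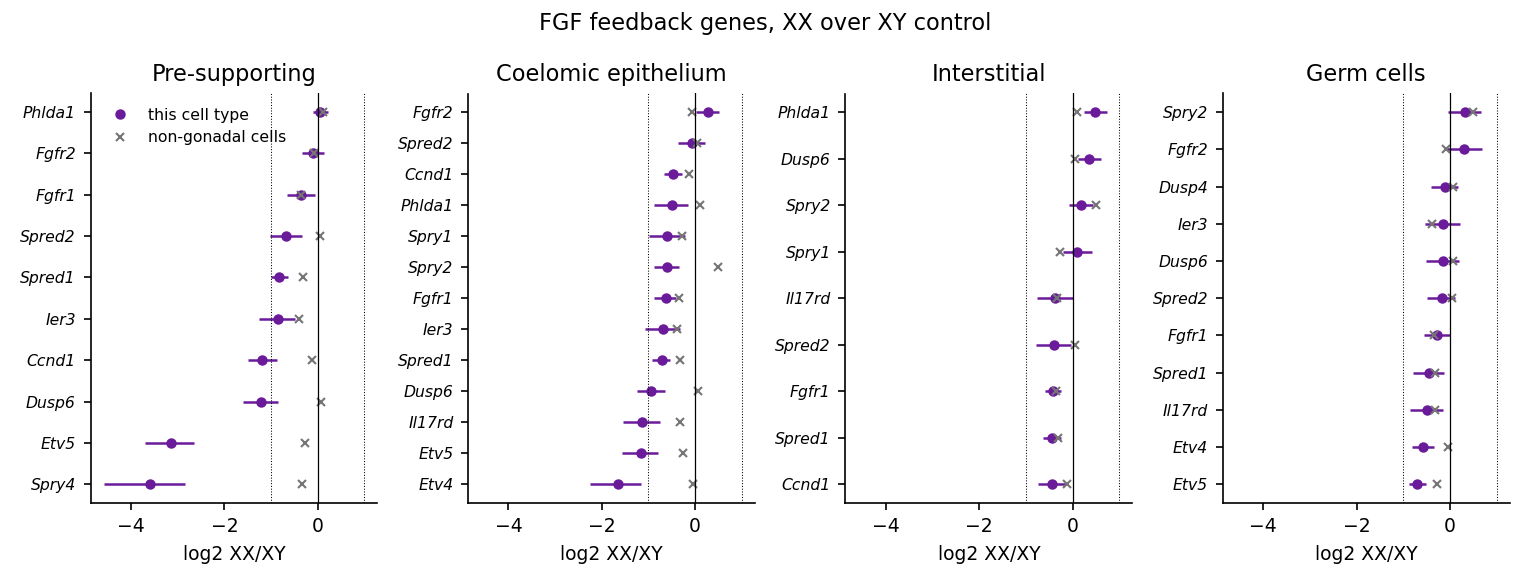
Log2 ratio of XX over XY for each tested member of the FGF feedback list in 4 cell types (filled points with 95% exact intervals), with the ratio in non-gonadal cells as crosses and dotted lines at 2-fold. Spry4, Etv5, Dusp6 and Ccnd1 lie past 2-fold in pre-supporting cells and Etv4, Etv5 and Il17rd in the epithelium, whereas no member does in interstitial or germ cells.

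Other genes of the testis supporting lineage were lower by less. Cyp26b1, which degrades retinoic acid and thereby keeps germ cells from it, was at 50.1 CPM in XX and 151.8 CPM in XY, a ratio of −1.496 (−1.68 to −1.32). It was also lower in non-gonadal cells, at −0.92, which left a difference of −0.57. Nedd9, a scaffold protein linked to Sox9 in the early testis, was at 22.0 against 57.8 CPM (−1.29, difference −0.98), and Mro at 8.41 against 20.0 CPM (−1.14). Inhbb, an activin and inhibin subunit, stood at 68.4 against 125.9 CPM (−0.78), inside the limit.

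Of the 22 genes on the testis list 11 were tested, 0 were past 2-fold higher and 4 lower, against 0.41% and 0.714% of all genes. On the ratio 10 lay below 0, with a median of −0.78. Over the 7 members that could also be read in non-gonadal cells, the median difference was −0.02, near the −0.06 of all genes. Sox9 was the only one past 2-fold lower on this measure. Cst9, a cystatin made by Sertoli cells, went the other way there. It was at 34.7 against 65.8 CPM in pre-supporting cells (−0.82), but at −3.11 in non-gonadal cells, which gave a difference of 2.29. XY Sertoli cells held 459.7 CPM of Cst9. The 8 Sertoli markers had UMIs in both non-gonadal samples, with sums of 51.8 and 63.1 CPM, and in immune cells the sums were 6.25 and 58.5 CPM, most of it Sox9 from 6 and 19 UMIs. In immune cells, which should lack them, Sertoli markers were thus higher in the XY control, though from few UMIs. Some non-gonadal cells make Sox9 themselves, and the part of free RNA in these values was not tested.

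Several of the lowest genes in XX were not on the testis list. Espn, an actin bundling protein, was at 15.0 against 83.1 CPM (−2.36, difference −2.94). Kctd12, an adaptor of GABA-B receptors, was at 13.3 against 92.3 CPM (−2.69), and Gldn, a secreted and membrane bound olfactomedin protein, at 5.604 against 54.2 CPM (−3.155). Mical2 (chromosome 7, 112225856 to 112413106), which oxidises actin, was at 5.604 against 34.0 CPM (−2.48). In XX each of these had runs that lay within a few CPM of each other and far below the XY runs.

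XY Sertoli cells offered a second view of the same genes. Of 7085 genes tested in both XY types, 3.19% were at least 2-fold higher and 3.35% at least 2-fold lower in XY Sertoli cells than in XY pre-supporting cells. Of the 54 genes lower in XX pre-supporting cells, 13 (24.1%) were higher in XY Sertoli cells and 11 (20.4%) were lower. Sox9, Mro and Nedd9 were among the former, at log2 values of 2.25, 2.02 and 1.42. Gldn and Kctd12 were among the latter, at −1.41 and −1.81, so these genes were higher in XY pre-supporting cells than in both XX pre-supporting and XY Sertoli cells. Of 18 genes higher in XX that could be read in both XY types, 1 (5.56%) was higher and 7 (38.9%) were lower in XY Sertoli cells. On the difference from non-gonadal cells the shares were not the same, with 4 (16%) higher and 8 (32%) lower in XY Sertoli cells of 25 lower genes, and 4 higher and 4 lower (25% each) of 16 higher genes. The XY pre-supporting level enters both sides of this reading, and it is given as a description.

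On the ovarian side Fst, the activin antagonist follistatin, led. Fst was at 236.8 CPM in XX (225.4 to 248.7, runs 260.7 and 214.0) and at 116.6 CPM in XY pre-supporting cells (109.1 to 124.3, runs 122.4 and 110.0). The ratio was 1.12 (1.01 to 1.24), and it was 0.97 without the first XX run. After thinning, Fst was found in 30.1% of XX cells and 15.5% of XY cells, against 4.48% of XX immune cells and 0 of 51 XY immune cells, which allows up to 5.88%. In non-gonadal cells the ratio was 0.40, leaving a difference of 0.72, which did not reach 2-fold. XY Sertoli cells held 4.09 CPM of Fst.

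Wnt4, the WNT ligand of the ovarian pathway, was at 756.2 CPM in XX (735.6 to 777.2) and 538.9 CPM in XY (522.8 to 555.4), a ratio of 0.59 (0.53 to 0.65). Since it was at −0.38 in non-gonadal cells, the difference was 0.97 (0.90 to 1.04). Runx1, a transcription factor of pre-granulosa cells, behaved alike, with 236.5 against 196.1 CPM, a ratio of 0.37 and a difference of 1.01 (0.83 to 1.19). Rspo1, which strengthens WNT signalling, had a ratio of 0.49 here and 0.50 in non-gonadal cells, and thus no difference (−0.01). Foxl2, the granulosa cell factor, had 113 and 80 UMIs, under the minimum, with 16.7 against 10.15 CPM. At 3000 UMIs per cell it was found in 4.30% of XX and 2.18% of XY cells. Cdkn1b, which encodes the cell cycle inhibitor p27, was at 208.1 against 132.5 CPM (0.75, difference 0.74).

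Of the 15 ovarian genes 12 were tested, 1 was past 2-fold higher (Fst) and 0 lower, against 0.41% and 0.714% of all genes. On the ratio 9 lay above 0, with a median of 0.36. The median difference was 0.60, with 11 of the 12 above 0. Lgr5 and Kctd14 were among those below 0 on the ratio, at −0.56 and −0.26. Markers of pre-supporting cells as a class gave a like value, with a median difference of 0.497 over 7 genes in pre-supporting cells and 0.593 in the epithelium, against −0.06 and −0.05 over all genes. Their sum was 299.0 CPM in XX and 397.6 CPM in XY non-gonadal cells, a ratio of 0.752. This sum does not tell stray pre-supporting RNA from RNA that non-gonadal cells make. Runx1, for example, was found in 43.3% of XX and 31.4% of XY immune cells at 3000 UMIs. The part of either in the ovarian differences was not tested. Sox9, Spry4 and Etv5 lay further from 0 on the ratio than any ovarian gene tested.

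**Figure D4:**
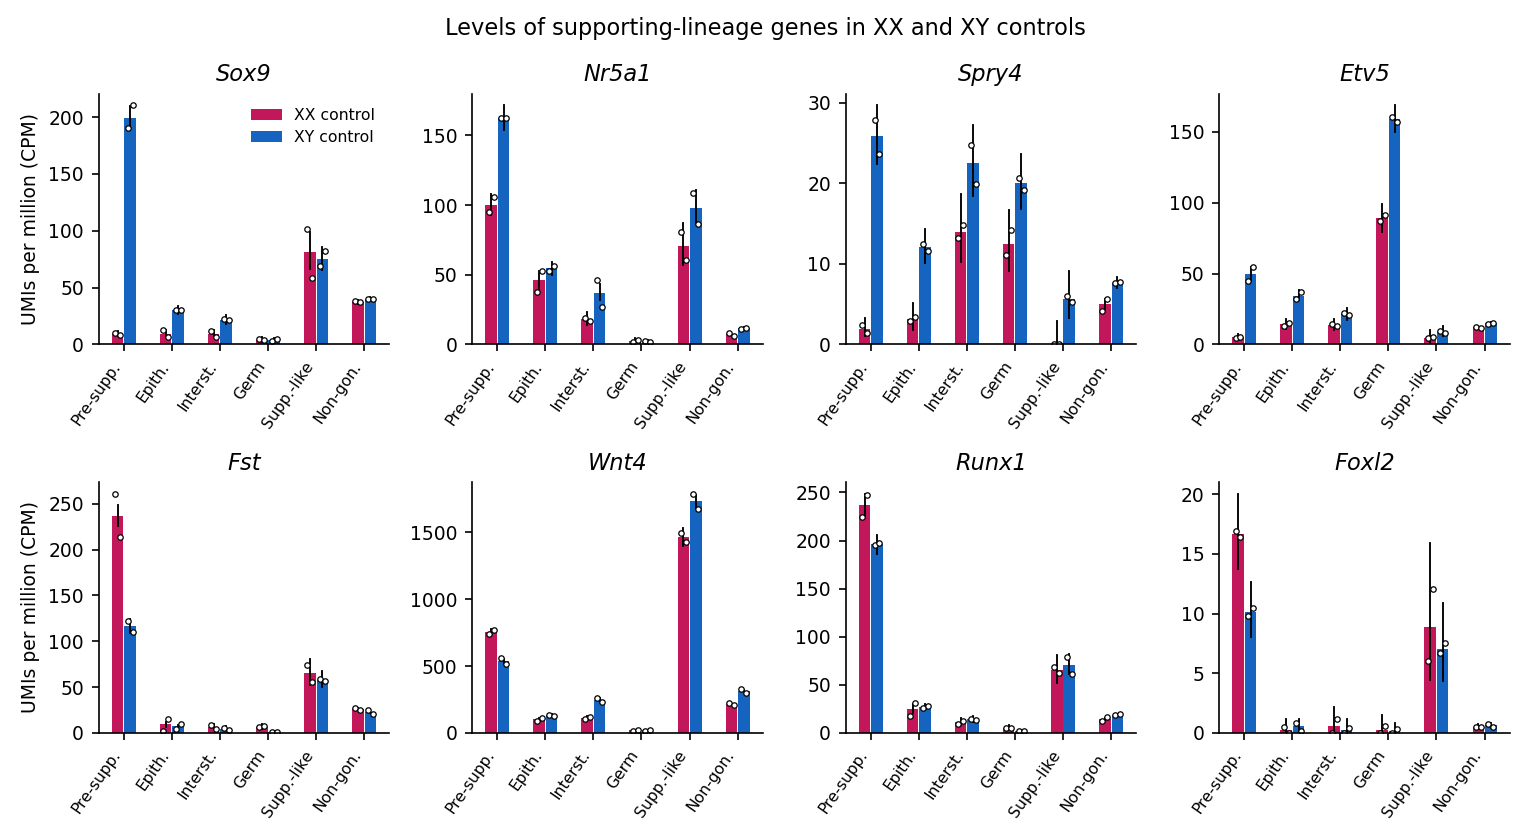
Levels of 8 genes of the supporting lineage in CPM (bars, from 0) in XX and XY controls for the 5 gonadal types and non-gonadal cells, with 95% exact Poisson intervals and each technical run as a circle. Sox9 is at 9.29 against 199.6 CPM in pre-supporting cells and at 81.5 against 74.9 CPM in supporting-like cells, and Fst at 236.8 against 116.6 CPM in pre-supporting cells.

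The genes that make the bipotential gonad before sex is decided stayed inside the limit. Of 14 tested regulators 0 were past 2-fold, against 0.41% higher and 0.714% lower of all genes, so this count does not set them apart. The median was −0.13. Lhx9 stood at 253.9 and 257.0 CPM (0.08), Gata4 at 221.9 and 254.2 CPM (−0.09) and Emx2 at 351.5 and 290.6 CPM (0.38). Gadd45g, which acts upstream of Sry, was at 1162 and 1004 CPM (0.31). Nr5a1, the steroidogenic factor that also works with Sry on Sox9, was the lowest of those named, at 100.3 against 162.3 CPM and −0.59 (−0.73 to −0.46), but it was at −0.72 in non-gonadal cells, and its difference was 0.12 (−0.10 to 0.35).

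The highest ratios in XX pre-supporting cells belonged to genes outside those lists. Tmem174, a transmembrane protein gene, had 208 UMIs in XX and 55 in XY (30.7 against 6.98 CPM, ratio 2.23). Vgll2, a cofactor of TEAD factors, was at 22.6 against 8.88 CPM (1.44), with 14.2 and 30.6 CPM in the XX runs, and fell inside the limit at 0.79 without the second run. Sprr2d and Ulk4 were at 1.51 and 1.30, with 1.205 and 1.18 in non-gonadal cells. Their differences were 0.30 (−0.02 to 0.63) and 0.12 (−0.12 to 0.37), so neither stood clear of non-gonadal cells. The part of stray pre-supporting RNA in the non-gonadal ratio of Sprr2d was not tested. Utf1, a chromatin factor best known from pluripotent and germ cells, was at 71.4 against 35.9 CPM (1.09), with −0.68 in non-gonadal cells and a difference of 1.77. The 8 germ cell markers summed to 57.8 CPM in XX and 81.4 CPM in XY pre-supporting cells.

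Cyp11a1, which starts steroid synthesis, was at 142.0 CPM in XX (133.2 to 151.3) and 70.4 CPM in XY (64.7 to 76.5). The ratio was 1.11 (0.96 to 1.27) and the difference 1.24 (0.97 to 1.51). It was at most 27.9 CPM in the other 4 gonadal types. Star, which feeds cholesterol to the enzyme, went the other way at 14.2 against 27.7 CPM. The 8 adrenal markers, which include Cyp11a1 and Star, summed to 286.8 CPM in XX and 198.4 CPM in XY pre-supporting cells, a ratio of 1.45. Cyp11a1 alone held 142.0 and 70.4 CPM of these sums. Of the 3 adrenal markers tested 2 lay above 0. On the wider steroidogenic list 7 genes were tested and 1 was past 2-fold higher (Cyp11a1), against 0.41% of all genes. There 5 of the 7 lay below 0, with a median of −0.104. The adrenal enzymes were near 0, with 0.15 and 0.38 CPM for Cyp21a1 and 0 and 0.13 CPM for Cyp11b1. The part of adrenal RNA in the Cyp11a1 ratio was not tested.

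Coelomic epithelium, the layer from which pre-supporting cells arise, had 11 genes past 2-fold higher in XX (0.138%) and 61 lower (0.765%). Of the 11 higher genes 7 were past 2-fold in non-gonadal cells as well, the linker histones Hist1h1b (316.1 against 142.9 CPM, 1.26) and Hist1h1e (1.35) among them. Without the second XX run these stood at 0.94 and 0.99, and 3 genes were past 2-fold higher in place of 11. For the difference from non-gonadal cells 5 genes of 7963 were higher (0.0628%) and 17 lower (0.213%). On that measure the genes past the limit were thus mostly on the lower side. The genes just inside and just outside the limit stood at 1.07 and 0.998 above and at −1.0 and −0.9994 below.

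Ngfr (chromosome 11, 95568818 to 95587735), the p75 neurotrophin receptor, was the lowest after Tpm3-rs7. It had 14 UMIs in XX and 314 in XY, with 2.94 CPM (1.61 to 4.94, runs 4.81 and 1.49) against 29.1 CPM (26.0 to 32.5, runs 29.2 and 29.0). The ratio was −3.14 (−4.08 to −2.42) and the difference −2.60 (−3.38 to −1.81), and without the second XX run the ratio was −2.41. In interstitial cells, where it was most abundant, Ngfr stood at 68.3 and 114.0 CPM. Chst1, a sulfotransferase, was at 3.57 against 18.0 CPM (−2.18, difference −1.83), and Cd55, which shields cells from complement, at 10.1 against 32.3 CPM (−1.55, difference −1.67). Rgcc and the integrin gene Itga9 were at −1.97 and −2.03, and Itga9 was at −2.91 without the second XX run.

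Most FGF feedback genes lay below 0 here as well. Etv4 was at 6.94 against 24.1 CPM (−1.66), Etv5 at 14.1 against 34.4 CPM (−1.16) and Il17rd, a membrane inhibitor of FGF receptors, at 13.9 against 33.3 CPM (−1.14). The Etv4 difference, −1.62, was −0.93 without the first XX run, whose Etv4 level was 3.37 CPM against 9.71 in the second. Dusp6 stood at 24.6 against 51.3 CPM (−0.94). Of the 20 listed genes 13 were tested, 0 were past 2-fold higher and 3 lower, against 0.138% and 0.765% of all genes. On the ratio 12 lay below 0, with a median of −0.64. The median difference was −0.41, against −0.05 over all genes. Spry2, another Sprouty gene, had a ratio of −0.60 but a difference of −1.10, since it was at 0.49 in non-gonadal cells.

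Sox9 in the epithelium was at 9.46 CPM in XX (runs 12.99 and 6.72) and 30.3 CPM in XY (runs 30.3 and 30.4), a ratio of −1.55 (−2.05 to −1.11). Immune cells held 3.75 CPM in XX and 32.7 CPM in XY, from 6 and 19 UMIs, so the XY level lay close to that of immune cells and the XX level above it. Immune markers summed to 7156 CPM in XX and 1971 CPM in XY immune cells, so these were not like backgrounds. By cell, at 3000 UMIs, Sox9 was found in 1.31% of XX and 7.58% of XY epithelial cells. The XY share could not be told from that of XY immune cells, which rests on 1 of 51 cells (0.0496% to 10.4%). The XX epithelial level was close to that of XX pre-supporting cells, and the XY epithelial level lay above both. No reading of Sox9 as an epithelial gene is drawn from these values.

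Genes of the epithelium itself lay on both sides of 0. Of 14 on the list 12 were tested and 0 were past 2-fold, against 0.138% higher and 0.765% lower of all genes. Of the 12, 6 lay above and 6 below 0, and the median was −0.01. Aldh1a2, which makes retinoic acid, was at 236.3 against 160.9 CPM (0.67), but at 0.45 in non-gonadal cells. Lhx9, which the growing gonad needs, was at 669.7 and 614.9 CPM (0.24), and Emx2 at 318.7 and 250.6 CPM (0.46). The highest differences from non-gonadal cells belonged to Gpr37 (1.53, from −0.36 here and −1.89 there), to the fatty acid binding protein gene Fabp3 (27.1 against 15.8 CPM, difference 1.28), to Gbp2b (1.22), Rgs11 (1.11) and Dsg2 (1.03). The last 3 were each under 1 when 1 run was left out, at 0.87, 0.99 and 0.82 at the lowest.

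Interstitial progenitors, which give rise to Leydig or theca cells and to stroma, had 10 genes past 2-fold higher in XX (0.166%) and 15 lower (0.249%), with 4 (0.0665%) and 2 (0.0333%) for the difference from non-gonadal cells. On either side of the limit the ratios were 1.03 and 0.98 above and −1.01 and −0.996 below. Nefm (chromosome 14, 68082590 to 68124846), a neurofilament subunit, had the highest ratio. It was at 53.4 CPM in XX (45.9 to 61.8, runs 47.5 and 59.2) and 12.6 CPM in XY (9.64 to 16.3, runs 13.8 and 11.4), with 179 and 60 UMIs. The ratio was 2.17 (1.75 to 2.63) and the difference 1.69. The 10 neural markers summed to 16.4 and 22.1 CPM in these cells.

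Immediate early genes, which cells switch on within minutes of a stimulus, dissociation included, held 3 of the 10 genes past 2-fold higher in XX interstitial cells. Egr1 was at 205.8 against 64.7 CPM (1.77), Junb at 89.5 against 34.3 CPM (1.48) and Ier2 at 361.5 against 176.7 CPM (1.14). Of 11 tested on this list 3 were past 2-fold higher and 0 lower, against 0.166% and 0.249% of all genes. On the ratio 7 lay above 0 and 4 below, down to −0.39, with a median of 0.71. The median difference was 0.57, against −0.05 over all genes. In pre-supporting cells 2 of 11 were past 2-fold higher, in the epithelium 0 of 15, in germ cells 0 of 5, all below 0, and in supporting-like cells 0 of 4. Egr1 was also at 0.87 in non-gonadal cells. Junb had a difference of 1.22, or 0.90 without the second XX run, and Ier2 a ratio of 0.97 without it. Handling of the tissue was not recorded per sample, and its part was not tested.

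Acta2, the smooth muscle actin of perivascular and stromal cells, was at 204.0 CPM in XX, with 162.9 and 244.4 in its runs, and at 87.4 CPM in XY (81.7 and 94.0), a ratio of 1.32 (1.15 to 1.51). Without the second XX run it was at 0.99, and its difference went from 1.02 to 0.48. Ebf1, a transcription factor of stromal cells, stood at 37.9 against 15.4 CPM (1.40). Lum, a matrix proteoglycan, had a difference of 1.34 but differed between the XX runs (64.3 and 30.8 CPM) and was at 0.81 without the first. On the lineage list of 19 tested genes, 1 was past 2-fold higher (Acta2) and 0 lower, against 0.166% and 0.249% of all genes. Of the 19, 10 lay above 0, and the median was 0.09. Nr2f2, the nuclear receptor of interstitial cells, was at 649.0 and 538.4 CPM (0.37) and Tcf21 at 602.5 and 538.8 CPM (0.26). Pdgfra, the receptor through which Leydig progenitors are recruited, was at 207.9 against 322.3 CPM (−0.53).

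Wnt4 had the opposite sign in interstitial progenitors. It was at 112.7 CPM in XX (101.7 to 124.7) and 247.9 CPM in XY (234.0 to 262.5), a ratio of −1.03 (−1.21 to −0.87). Leaving out a run moved it between −0.95 and −1.14, so whether it passed 2-fold depended on the run. At 3000 UMIs per cell it was found in 21.8% of XX and 36.6% of XY interstitial cells, against 13.4% and 13.7% of immune cells. Non-gonadal cells were at −0.38, and the difference was −0.65. Other genes of neighbouring types were lower in XX interstitial cells too. The 7 pre-supporting markers summed to 657.1 against 891.0 CPM (a ratio of 0.737) and the 7 coelomic epithelium markers to 105.3 against 159.2 CPM (0.661), and 5 of 6 ovarian genes tested lay below 0 with a median of −0.47. The part of such RNA in the Wnt4 ratio was not tested. Podxl, Naaa and Pdzd2 were lower at −1.21, −1.29 and −1.77, and Igf1, the insulin-like growth factor gene, at 20.0 against 45.5 CPM (−1.08). The response to hedgehog, the signal that Sertoli cells send to this lineage, was read from 6 tested genes. None was past 2-fold, against 0.166% higher and 0.249% lower of all genes. The median of the 6 was −0.39 with a median difference of −0.06. Nr5a1 stood at 18.2 against 37.3 CPM (−0.93), near the −0.72 of non-gonadal cells.

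In germ cells 6 genes were past 2-fold higher in XX (0.108%) and 12 lower (0.215%). For the difference from non-gonadal cells 14 of 5502 were higher (0.254%) and 0 lower (0%), but without the second XX run 11 were higher and 13 lower. The ratios nearest the limit were 1.15 and 0.98 above and −1.03 and −0.9998 below. Germ cells were the deepest in both samples, with medians of 40644 and 11990.5 UMIs per cell, and only 20 XX germ cells met all limits set for XY cells. With those 20 alone the counts were 75 in place of 18 and 90 in place of 14, from far fewer UMIs.

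Dazl (chromosome 17, 50279395 to 50293636), the RNA binding protein that licenses germ cells to enter either sexual programme, was the germ cell gene furthest apart. It was at 140.7 CPM in XX (128.7 to 153.4, runs 135.3 and 147.2) and at 345.2 CPM in XY germ cells (331.5 to 359.2, runs 355.7 and 330.5). The ratio was −1.16 (−1.30 to −1.02), between −1.12 and −1.21 with any 1 run left out, and −1.54 in the 20 XX cells within the limits. Non-gonadal cells, with a ratio of −2.36, held too few UMIs of Dazl for a difference. Ddx4, the germ cell helicase that comes on at about the same stage, stood at 73.1 against 89.6 CPM (−0.16, −0.37 to 0.05), and at −0.99 in those 20 cells.

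The male germ cell list holds genes of Nodal signalling, which XY germ cells use for a short time, and 1 of them, Lefty1, was past 2-fold lower in XX. Lefty1 was at 23.8 against 56.6 CPM (−1.11, −1.47 to −0.77), Lefty2 at 53.4 against 92.4 CPM (−0.65) and the coreceptor Tdgf1 at 14.7 against 27.7 CPM (−0.77). Without the second XX run Lefty1 was at −0.99. Nodal itself, under the minimum with 50 and 132 UMIs, was at 13.8 and 18.9 CPM. Of 13 autosomal genes of the male germ cell list 4 were tested and 1 was past 2-fold lower, against 0.215% of all genes. All 4 lay below 0, with a median of −0.71. Non-gonadal cells held too few UMIs of them for a difference. Dnmt3l, a later marker of male germ cells, had 0 UMIs in both samples, and Nanos2 was not analysed here.

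Pluripotency genes, which germ cells keep until they differentiate, lay on both sides of 0, with 13 of 20 tested above it, 7 below and a median of 0.10. Pou5f1 was at 305.4 CPM in XX and 231.8 CPM in XY (0.53, 0.42 to 0.64), but the XY runs stood at 191.8 and 287.6 CPM, and without the first of them the ratio was 0.19. Nanog was at 75.0 and 65.1 CPM (0.34), and Dppa5a at 4231 and 3319 CPM (0.48). On this list 0 genes were past 2-fold higher and 1 was lower (Dazl), against 0.108% and 0.215% of all genes. Stra8, the meiotic gatekeeper induced by retinoic acid, had 0 UMIs in both, and the 3 UMIs that a count of 0 allows would be 0.831 CPM in XX and 0.43 CPM in XY. The BMP responders Id1, Id3 and Msx2, which lie upstream of it, were at 0.57, 0.56 and 0.69, with 0.19, 0.40 and 0.45 in non-gonadal cells. On the meiotic list 6 were tested and 0 were past 2-fold, against 0.108% higher and 0.215% lower of all genes. Of the 6, 5 lay above 0, with a median of 0.51 and a median difference of 0.20, against −0.10 over all genes.

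**Figure D5:**
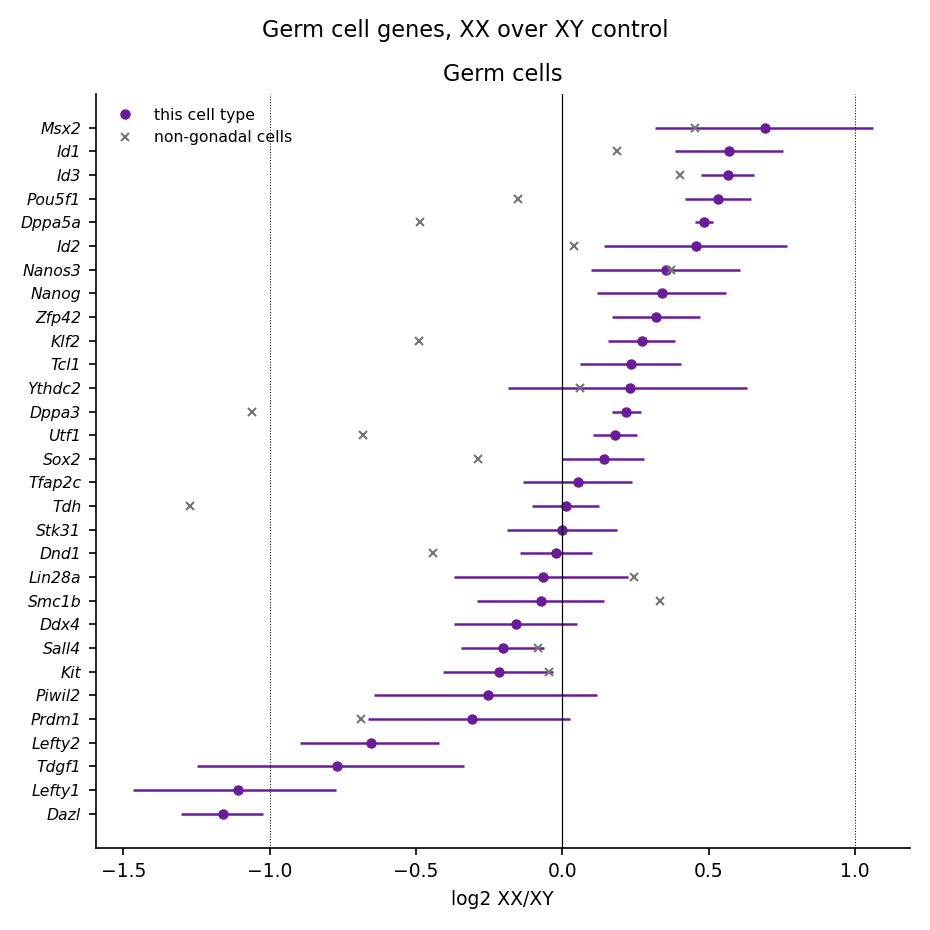
Log2 ratio of XX over XY in germ cells for the tested members of the pluripotency, male and meiotic lists (points with 95% exact intervals), with the ratio in non-gonadal cells as crosses where the gene reached the minimum there and dotted lines at 2-fold. Dazl and Lefty1 lie past 2-fold lower at −1.16 and −1.11, and no gene lies past it on the higher side.

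The 14 higher differences of germ cells need a second look at the cells they are set against. Dppa3 had a ratio of 0.22 in germ cells but −1.06 in non-gonadal cells, where it stood at 6.46 against 15.0 CPM, and its difference was 1.28. Tdh was at 0.01 and −1.27, with a difference of 1.29. The 8 germ cell markers summed to 52.2 CPM in XX and 81.0 CPM in XY non-gonadal cells, a ratio of 0.644, and the ratio was 0.695 to 0.715 in the other 4 gonadal types. These sums do not tell stray germ cell RNA from RNA that the other cells make. The part of either in such differences was not tested. The highest difference of all, 1.65, was that of Kctd14, a gene most abundant in the supporting lineage (3632 CPM in XY pre-supporting cells), at 43.2 against 28.8 CPM in germ cells. Its XX and XY runs overlapped, and it was at −0.26 in the 20 XX cells within the limits. The pre-supporting markers summed to 72.8 CPM in XX and 46.4 CPM in XY germ cells, a ratio of 1.57, and the part of such RNA was not tested. Other differences were those of Cldn7, a tight junction gene, at 51.2 against 24.7 CPM (ratio 1.19, difference 1.49), of Phlda2, an imprinted growth regulator, at 211.5 against 104.6 CPM (1.15 and 1.23), and of Bmyc at 76.7 against 34.3 CPM (1.30 and 1.10). Cldn7 is also 1 of 10 mesonephric epithelium markers, which summed to 480.4 CPM in XX and 426.8 CPM in XY germ cells. Of the 4 tested 3 lay above 0 on the ratio, and the part of such RNA was not tested. Cldn7 was at 0.98 without the first XX run, and Bmyc was at 0.10 in the 20 XX cells within the limits.

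Supporting-like cells, a PAX8 lineage beside the gonad that later forms the rete, had 4 genes past 2-fold higher in XX (0.115%) and 15 lower (0.432%). For the difference from non-gonadal cells the counts were 0 (0%) and 2 (0.0576%) of 3470. The limit passed between 1.01 and 0.83 above and between −1.01 and −0.996 below. Sox9 was expressed in these cells in both sexes and gave no detectable difference. It was at 81.5 CPM in XX (66.4 to 99.0, runs 101.6 and 58.6) and 74.9 CPM in XY (65.2 to 85.7, runs 68.7 and 81.9), a ratio of 0.18 with an interval of −0.18 to 0.53, and −0.28 without the first XX run. At 3000 UMIs per cell Sox9 was found in 17.4% of 86 XX cells (10.1% to 27.1%) and in 16.4% of 517 XY cells (13.3% to 19.9%). The XX runs lay on both sides of the XY runs.

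The other genes of this lineage stayed inside the limit. Pax8 was at 129.9 and 138.6 CPM (−0.03), and Wnt4, which was more abundant here than in any other gonadal type, at 1463 and 1733 CPM (−0.19). Ncam1 stood at 374.3 against 594.2 CPM (−0.61), with −0.23 in non-gonadal cells. Of the 6 tested list genes 0 were past 2-fold and the median was −0.11. Ovarian genes gave 0 past 2-fold of 8 and a median of −0.05, with Fst at 65.4 and 58.3 CPM (0.22) and Runx1 at 65.4 and 71.1 CPM (−0.06). Over all genes the shares past 2-fold were 0.115% higher and 0.432% lower, so neither count of 0 sets its list apart.

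The differences past 2-fold in supporting-like cells were those of Apoe and Mical2. Apoe, the lipid carrier, was at 58.9 CPM in XX, with 77.4 and 37.9 in its runs, against 112.8 CPM in XY (difference −1.15). Mical2 was at 22.6 against 72.1 CPM (ratio −1.60, difference −1.09). Leaving out the first XX run moved the Mical2 difference to −0.62, and TMM factors, another way of scaling the samples, left it just short of 2-fold. Slc38a4, an imprinted amino acid transporter gene, was at 47.6 against 142.4 CPM (−1.52), but at −1.08 in non-gonadal cells. Gmnn, which blocks a second round of DNA replication, was the highest after Hist1h1b, at 78.3 against 38.5 CPM (1.08), and was at 0.87 and 0.97 without the first XX or the second XY run.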

How the data were processed

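Gonads with the attached mesonephros were profiled by droplet-based 3′ RNA-seq. The authors aligned reads to mm10 with Cell Ranger 6.1.1, removed doublets and low-quality cells, and named cell types with Seurat after integrating the samples. XY cells were filtered by percent of mitochondrial and beta globin UMIs, by UMIs (under 30000) and by genes (under 7000), and XX cells by removing low-quality clusters. The deposited table holds raw UMI counts of 21495 genes, and all 126435795 nonzero values were checked to be whole. The deposited annotation gives cell type, run and, as percent computed by the authors, mitochondrial and beta globin content. No cell was removed here and no doublet caller was run.

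UMIs were summed per sample and type. Of the genes, 20336 were autosomal by GENCODE M21 (98.7% of symbols matched) and not mitochondrial, ribosomal protein or globin genes. The minimum for a tested gene was 200 UMIs summed over XX and XY. The log2 ratio is that of CPM (prior count 0.5) minus the median over tested genes, and the medians taken away lay between −0.134 and −0.0559. The ratio in non-gonadal cells is a Mantel-Haenszel ratio over 7 deposited types, minus its own median (−0.151). Intervals are exact Poisson for levels, exact binomial for ratios and Clopper-Pearson for shares. The interval of a difference joins both ratios by their approximate errors. Genes were named as the 5 highest and 5 lowest ratios and the 5 highest and 5 lowest differences in each type, together with members of 23 gene lists. A further 12 lists of cell type markers served as checks. Members and lists were chosen with earlier results of these data known. Alternatives were TMM factors (edgeR 4.0.16), other minimums, prior counts and folds, XX cells held to the XY limits, means over cells, thinning, a simply summed reference, Sertoli cells merged in, and each run left out. Scripts (Python 3.11.15, NumPy 2.4.6, pandas 2.3.3, SciPy 1.17.1) were tested on simulated data.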

Additional observations from a re-analysis of the deposited data

Results flagged for a closer look

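Among the genes on the lists or named by rank, those whose ratio had opposite signs in different cell types were picked out. Their counting intervals lay clear of 0 on both sides, and the ratio was past 2-fold in at least 1 type. A minimum size of the ratio was also set on each side, so opposite signs of smaller size are not listed. Igf1 was at 0.59 in coelomic epithelium (59.7 CPM in XX against 43.0 in XY) and at −1.08 in interstitial progenitors (20.0 against 45.5 CPM). It was at 0.43 in pre-supporting and 0.41 in supporting-like cells. Wnt4 was at 0.59 in pre-supporting cells and at −1.03 in interstitial progenitors. The difference between the types was not tested for either gene.

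X-linked genes, which the comparisons leave out, were read in the same way. Their median log2 ratio of XX over XY, relative to the autosomal median, was 0.0366 in pre-supporting cells (140 of 255 genes above 0), 0.0396 in the epithelium (146 of 275), 0.061 in interstitial progenitors (110 of 192), −0.0289 in supporting-like cells (53 of 109) and 0.0391 in non-gonadal cells (242 of 444). In germ cells it was 0.413, with 145 of 166 genes (87.3%) above 0. Xist, the RNA that silences an X chromosome, stood at 43.8 CPM (37.2 to 51.1) in XX germ cells from 158 UMIs, against 664.3 to 824.4 CPM in the other XX gonadal types. XY germ cells held 2.44 CPM of Xist from 17 UMIs. The 4 Y-linked genes read had 1 UMI in XX pre-supporting cells and 0 in the other XX types, against 117 to 381 in the XY types.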

How the results depend on the processing

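Counts of genes past 2-fold are given below for pre-supporting, epithelial, interstitial, germ and supporting-like cells in this order, where they were 85, 72, 25, 18 and 19 for the ratio and 48, 22, 6, 14 and 2 for the difference from non-gonadal cells. At 1.5-fold they were 450, 485, 278, 202 and 190 for the ratio and 251, 147, 68, 118 and 66 for the difference. With a minimum of 50 UMIs they were 280, 250, 132, 144 and 174, and 194, 134, 63, 127 and 89. With a minimum of 500 UMIs they were 48, 23, 9, 4 and 1, and 20, 6, 0, 4 and 0. Thinning every sum to the smallest gave 23, 7, 14, 5 and 8, and 13, 2, 2, 5 and 1. These settings change how many genes are tested or the limit itself. Merging Sertoli into pre-supporting cells gave 337 and 231. Holding XX cells to the XY limits gave 75 and 90 in germ cells, and there the difference of Kctd14 was −0.26 in place of 1.65. In supporting-like cells a prior count of 5 gave 12 and 1, means over cells gave a difference count of 4, TMM factors gave 1, and centring the differences again, chosen after seeing the data, gave 1. The cause was not tested. Leaving out 1 run gave 66 to 91, 34 to 101, 13 to 30, 15 to 37 and 3 to 26 genes for the ratio, and 31 to 55, 9 to 35, 6 to 11, 10 to 24 and 1 to 9 for the difference. A simply summed reference moved no count by over 1.5 times.

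Of 94 values of named genes past 2-fold, 93 remained past it with TMM factors, 86 with XX cells held to the XY limits, and 82 to 89 with 1 run left out, and the Kctd14 value was the only 1 of the 94 to change sign under these settings. Thinning cells to 5000 UMIs gave Sox9 in 3.24% of XX and 33.6% of XY pre-supporting cells, with 12 of 352 and 1013 of 1641 shallower cells left out. No paired analysis was possible because each group held 1 sample. Runs measure technical spread, not variation between embryos, and genes under 200 UMIs could not be read at this depth.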

Other observations

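Heat shock, glycolysis, S phase and G2/M lists had 0 members past 2-fold on the ratio in any of the 5 types, against 0.323% to 1.12% of all genes. Their medians lay between −0.17 and 0.30. On the difference the glucose transporter gene Slc2a3 was past 2-fold in germ cells, at 1.02, from −0.00498 there and −1.03 in non-gonadal cells. Relative to non-gonadal cells, S phase genes such as the Mcm and Pcna genes lay below 0 for all 18 tested in pre-supporting cells, with a median difference of −0.43 against −0.06 over all genes. The sign was shared by 18 of 20 in the epithelium, 14 of 18 in interstitial, 15 of 17 in germ and 7 of 9 in supporting-like cells, with medians of −0.15, −0.12, −0.24 and −0.11 against −0.05, −0.05, −0.10 and −0.11 over all genes, so supporting-like cells did not stand apart from all genes. G2/M genes lay below 0 on the same measure for all 20 tested in germ cells (median −0.35, against −0.10 over all genes), 19 of 20 in the epithelium (−0.17) and 10 of 12 in interstitial cells (−0.14), but for 7 of 13 in pre-supporting and 1 of 3 in supporting-like cells. On the ratio itself the S phase median was −0.09 in pre-supporting cells and the G2/M median −0.08 in germ cells. Collagen and matrix genes lay below 0 in 18 of 19 tested in the epithelium (median −0.49) and 18 of 20 in interstitial progenitors (−0.41), but their median differences were −0.13 and 0.23. Of these genes 13 of 17 lay below 0 in pre-supporting, 7 of 7 in germ and 11 of 12 in supporting-like cells. Medians there were −0.33, −0.29 and −0.44, and median differences 0.27, 0.09 and −0.04.

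Among 38 imprinted genes, 29 were tested in pre-supporting cells and 1 was past 2-fold higher, against 0.41% of all genes. This was H19, the growth restricting RNA of the Igf2 locus, at 1020 CPM in XX and 482.5 CPM in XY (ratio 1.18), with 0.71 in non-gonadal cells. In germ cells 21 were tested and 1 was past 2-fold higher, Phlda2 at 1.15, against 0.108% of all genes. Medians over the imprinted genes were 0.11, −0.03, 0.08, 0.17 and −0.03 in pre-supporting, epithelial, interstitial, germ and supporting-like cells. Of the retinoic acid list, 10 genes were tested in pre-supporting cells, with Crabp1 and Crabp2, which bind retinoic acid in the cell, past 2-fold higher at 1.10 and 1.27 (0.41% of all genes) and Cyp26b1 lower (0.714%). None of the 3 was past 2-fold on the difference, and no gene of the list was in the other 4 types.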
